A study of Homo sapiens with 4 samples.

Results

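The mRNAs described here encode the translation initiation factors (EIF genes), the elongation factors (EEF genes), the release factors ETF1 and GSPT, and the aminoacyl-tRNA synthetases. They were chosen by a rule on gene symbols: symbols that begin with EIF or EEF and a digit, ETF1, GSPT1, GSPT2, the synthetase symbols that end in ARS, ARS1 or ARS2, and EPRS1. The rule found 105 genes of the 14911 with a listed transcript, among them 41 initiation factors, 9 elongation factors, 3 termination factors, 35 synthetases and 17 other genes with such symbols, called regulators here, most of them enzymes or inhibitors that act on the factors. These 105 genes had 231 listed transcripts of 28413 in all.

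Protein synthesis starts when the eIF2 complex brings the initiator tRNA to the small ribosomal subunit, eIF3 and eIF1 hold that subunit ready, and the eIF4 proteins bind the mRNA cap and unwind the leader. The eEF1 proteins then deliver charged tRNAs, eEF2 moves the ribosome along, and eRF1 (ETF1) with eRF3 (GSPT1 or GSPT2) releases the finished chain. The synthetases charge each tRNA with its amino acid, and most amino acids have separate cytosolic and mitochondrial enzymes. N6-methyladenosine (m6A) is a methyl mark on mRNA found mainly in the RRACH context (R stands for a purine, H for any base but G) around stop codons, and ALKBH5 is a demethylase that removes it.

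HEK293T, a line of human embryonic kidney cells with the SV40 large T antigen, was transduced with a control shRNA (shCTL) or an shRNA against ALKBH5 (shA5), and poly(A) RNA was sequenced after X-ray exposure before (input) and after pull-down with an m6A antibody (m6A-IP). All 4 libraries came from irradiated cells, at a dose of 10 Gy per the study's methods, so no library shows unirradiated cells. Each population gave 1 input and 1 m6A-IP library, so differences between the populations have no replicate check and no p-value is given. The time after exposure and the choice of ALKBH5 shRNA for these libraries were not given in the sources used here.

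The libraries held 1311390 to 3944402 counts, and the shA5 input, the shallowest, limited the precision. ALKBH5, the targeted gene, had 486 input and 1432 m6A-IP counts in shCTL, and 145 input and 589 m6A-IP counts in shA5. In CPM, the count scaled to the library total, this put the shA5 input 1.96-fold below the shCTL input (95% counting interval 1.63 to 2.38). The translation genes took 4.66% of all input counts and 3.58% of all m6A-IP counts in shCTL, and 4.86% and 3.70% in shA5. EEF2 alone made up between 49.2% and 56.6% of these, so sums over the set mostly describe EEF2 and are not used further.

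The m6A enrichment of a gene compares its CPM in the m6A-IP with that in the input, as a log2 ratio after 0.5 CPM was added to both. A value of 0 is the average of the library and does not mean that a transcript lacks m6A. Of the 105 genes, 61 passed a mean of 50 counts over the 4 libraries, as did 5320 of all genes. These were 23 of 41 initiation factors, 6 of 9 elongation factors, 3 of 3 termination factors, 22 of 35 synthetases and 7 of 17 regulators. The other 44 had mean counts from 0.25 to 49.8, with a median of 13.4, and are listed by value only. The members just under the filter were EIF4A3 with a mean of 49.8 and EIF2AK2 with 46.8, and those just above it were EEF1AKMT4 with 52.5 and EIF4G1 with 60.0. A difference is described as past the threshold at 1.5-fold, which is 0.585 on the log2 scale, and intervals are 95% intervals that cover counting error only.

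Members with 1 listed transcript had a median of 354 counts in the shCTL input (n = 44), and 79.5% passed the filter, while members with 2 or more had a median of 35 (n = 61), and 42.6% passed. Over all genes the medians were 15 and 23.5. EIF3F, an eIF3 subunit, had counts of 0, 0, 1 and 0, and EIF4A2 had 22, 9, 9 and 4. Here and below, 4 counts in a row are those of the input and the m6A-IP of shCTL, then the input and the m6A-IP of shA5. How reads shared between transcripts were counted is not given in the sources used here, so levels are not compared between genes with different numbers of transcripts, and a low count is not read as low expression.

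The sequences below show the motif in which m6A is known to occur, chosen by its letters and not by any measured position of the mark. They are the sites of GGAC followed by A, C or T (one form of RRACH) nearest the stop codon in the most and the least enriched members of shCTL, with the motif in capitals, 5′ to 3′ on the transcript strand. The first 4 are from the members with the highest enrichment and the last 4 from those with the lowest.

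PARS2: cctttcctGGACTgctctctc
MARS2: agcccaccGGACCtagaaact
GSPT2: ccagagaaGGACTaagcaatt
EIF3B: gagctacaGGACTcccgagtg
EIF2S3: aaacttagGGACTaaaattaa
EIF3M: cctagtctGGACAgttattgt
EIF1: tttaacttGGACTagtgtaac
EEF1A1: aaagcagtGGACAagaaggct

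In hg38 with Gencode v44, these windows lie at chr1:54757643-54757663 (PARS2, minus strand, 3′ UTR), chr2:197707172-197707192 (MARS2, plus strand, coding), chrX:51745499-51745519 (GSPT2, plus strand, coding), chr7:2380234-2380254 (EIF3B, plus strand, 3′ UTR), chrX:24076956-24076976 (EIF2S3, plus strand, 3′ UTR), chr11:32602478-32602498 (EIF3M, plus strand, 3′ UTR), chr17:41690950-41690970 (EIF1, plus strand, 3′ UTR) and chr6:73517864-73517884 (EEF1A1, minus strand, coding). Measured from the middle base of the stop codon, the A of the motif was 82 bases away in PARS2, 4 in MARS2, 3 in GSPT2 and 56 in EIF3B. In the least enriched members it was 182 bases away in EIF2S3, 90 in EIF3M, 135 in EIF1 and 63 in EEF1A1. In GSPT2 the last letter of the motif is the first base of the stop codon. A matching motif is a description of the sequence and does not show that the site is methylated.

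Pooled over the groups, the translation genes had a lower median m6A enrichment than all genes, but the groups differed. In shCTL, 5 of the 61 members (8.20%) were enriched at least 1.5-fold in the m6A-IP, beside 22.5% of all 5320 genes, and 27 (44.3%) were at least 1.5-fold lower in the m6A-IP, beside 30.3%. In shA5, 7 members (11.5%) were at least 1.5-fold higher, beside 24.3% of all genes, and 32 (52.5%) at least 1.5-fold lower, beside 31.7%. The median enrichment of the members was -0.53 in shCTL and -0.71 in shA5, and that of all genes was -0.11 and -0.10. In shCTL the group medians were -0.69 for initiation factors, -0.34 for elongation factors, 0.20 for termination factors, -0.56 for synthetases and -0.18 for regulators. Genes at least 1.5-fold lower there were 12 of 23 initiation factors and 11 of 22 synthetases. They were 1 of 6 elongation factors (16.7%), 2 of 7 regulators (28.6%) and 1 of 3 termination factors, beside 30.3% of all genes. The 5 genes above the threshold in shCTL were PARS2, MARS2, GSPT2, EIF3B and EIF5B. All 5 were above it in shA5 too, joined there by AARS2 and EEF1D, which had stood at 0.51 and 0.580 in shCTL, short of the threshold. Of the genes below the threshold, 25 were shared by both populations, 2 were below it in shCTL only (EIF4G1 and ETF1) and 7 in shA5 only (EEF1AKMT4, EEF1G, EEF2K, EIF2S1, EIF5, IARS1 and WARS1). The matching overlap among all 5320 genes was not counted. These splits therefore only list which members crossed the threshold and are not read as a trait of the set.

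**Figure D1:**
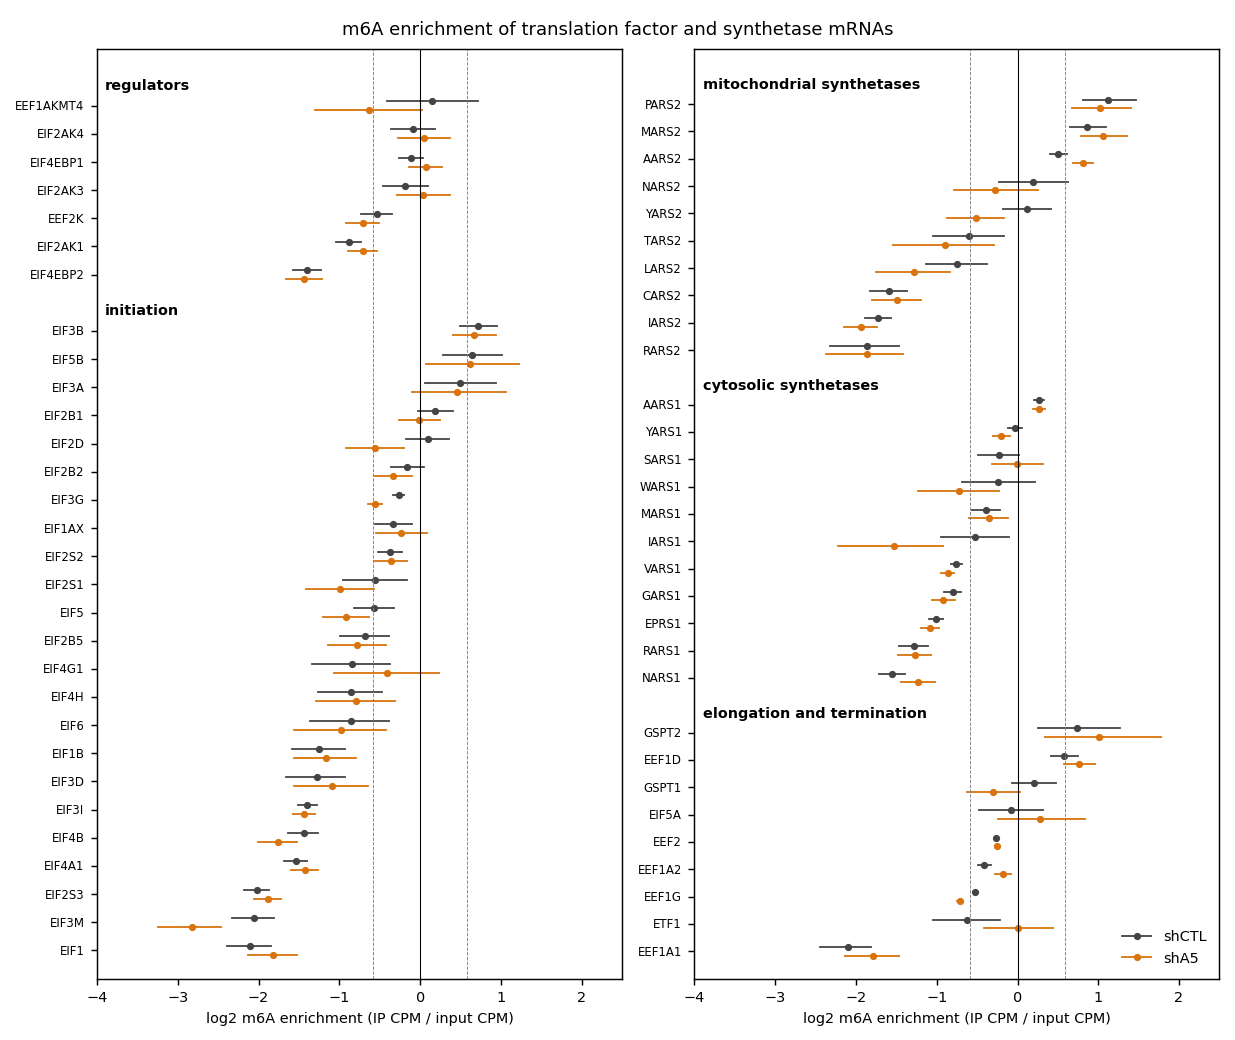
Log2 m6A enrichment (x axis) of 60 of the 61 members past the filter (y axis), in shCTL (grey) and shA5 (orange), as points with 95% counting intervals from 1 library pair each, and dashed lines at 1.5-fold. In shCTL, 45 of the 60 points lie below 0, and the highest are PARS2 at 1.13 and MARS2 at 0.86.

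The factors that prepare the small subunit and choose the start codon ranged from -2.10 to 0.64 in shCTL. EIF1, which guards the choice of the start codon, had 381 input and 155 m6A-IP counts in shCTL, and 225 and 152 in shA5. It was 4.29-fold lower in the m6A-IP in shCTL (log2 -2.10, interval -2.39 to -1.84) and stood at -1.82 in shA5. Its paralog EIF1B, with 190, 140, 112 and 119 counts, was higher than EIF1 by 0.85 in shCTL (interval 0.43 to 1.29) and by 0.65 in shA5 (0.16 to 1.15). The upper end was EIF5B, the GTPase that joins the ribosomal subunits, with 87, 240, 34 and 126 counts and an enrichment of 0.64 (interval 0.29 to 1.02) in shCTL and 0.62 in shA5. EIF2D, which can bring tRNA to the ribosome without eIF2, was next at 0.09 in shCTL.

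The 3 subunits of eIF2 did not share a level. EIF2S3 (the gamma subunit, which binds the tRNA and GTP) had 1192, 516, 781 and 505 counts and an enrichment of -2.02 (interval -2.18 to -1.88), with -1.89 in shA5. EIF2S2 (beta) stood at -0.37 and EIF2S1 (alpha, the subunit phosphorylated in the integrated stress response) at -0.55. The intervals of EIF2S1 and EIF2S2 overlapped, and both lay wholly above that of EIF2S3. The subunits of eIF2B, the exchange factor that recharges eIF2 with GTP, stood at 0.18 for EIF2B1, -0.16 for EIF2B2 and -0.69 for EIF2B5, and the interval of EIF2B5 (-0.99 to -0.39) overlapped those of EIF2S1 and EIF2S2.

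The eIF3 subunits spanned nearly the whole range of the set, although their proteins work in 1 complex. EIF3B, a core subunit, had 210, 610, 152 and 579 counts and was 1.64-fold higher in the m6A-IP in shCTL (log2 0.72, interval 0.49 to 0.95). EIF3A, the largest core subunit, had 62, 154, 34 and 113 counts and stood at 0.49 (interval 0.06 to 0.94). At the other end, EIF3M had 404, 170, 226 and 75 counts and was 4.15-fold lower in the m6A-IP (log2 -2.05, interval -2.33 to -1.80). EIF3I was at -1.40, EIF3D at -1.28 and EIF3G at -0.27. Per kb of transcript the shCTL input held 1078 CPM of EIF3G and 473 CPM of EIF3I, which have 1 listed transcript each. The other 8 subunit genes were under the filter.

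In the eIF4 group, all 4 genes past the filter were at least 1.5-fold lower in the m6A-IP in shCTL, beside 30.3% of all genes. The cap-binding protein EIF4E was not among them, being under the filter with 38, 59, 30 and 31 counts. EIF4A1, the helicase, had 1088, 658, 607 and 540 counts (-1.54, interval -1.69 to -1.40). EIF4B, which aids the helicase, had 590, 381, 353 and 249 (-1.44). EIF4H stood at -0.86 and EIF4G1, the scaffold, at -0.84. In shA5 EIF4G1 was at -0.42 with an interval of -1.06 to 0.24 that held 0, and the other 3 were still past the threshold. The exons of EIF4A1 overlap a read-through gene on the same strand, whose reads cannot be told apart from its own here, and 3 snoRNA genes lie within its locus.

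Among the proteins that regulate the factors, EIF4EBP2, an inhibitor of the cap-binding protein, was lowest with 650, 434, 359 and 318 counts (-1.40 in shCTL and -1.43 in shA5). EIF4EBP1, which does the same, had 621, 1012, 280 and 704 counts (-0.11 and 0.07). The eIF2 kinases were at -0.89 for EIF2AK1 (HRI, the heme-regulated kinase), -0.18 for EIF2AK3 (PERK, the kinase of the endoplasmic reticulum) and -0.09 for EIF2AK4 (GCN2, which senses uncharged tRNA). EIF2AK2 (PKR, activated by double-stranded RNA) was under the filter with 73, 48, 44 and 22 counts. The eEF2 kinase EEF2K stood at -0.54 and EEF1AKMT4, a lysine methyltransferase of eEF1A, at 0.14.

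The elongation factors EEF2 and EEF1G had the most counts of all members. EEF2, the translocase, had 51262, 75439, 32648 and 65892 counts, and an enrichment of -0.26 (interval -0.28 to -0.24) in shCTL and -0.25 (-0.27 to -0.23) in shA5. EEF1G, a subunit of the exchange complex eEF1B, had 16298, 19951, 9840 and 14384 counts. Its enrichment was -0.53 in shCTL and -0.72 in shA5. EEF1D, another subunit of that complex, was the highest of the group with 413, 1089, 272 and 1111 counts (0.580, just short of the threshold, and 0.77). Per kb of transcript the shCTL input held 7254 CPM of EEF2, 5037 CPM of EEF1G and 532 CPM of EEF1A2.

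EEF1A1 and EEF1A2 encode near-identical forms of the protein that delivers charged tRNAs. EEF1A1 had 299, 121, 189 and 130 counts and the lowest enrichment of the set in shCTL (-2.10, interval -2.44 to -1.81). EEF1A2 had 2109, 2792, 1267 and 2689 counts and stood at -0.41 (interval -0.50 to -0.33). The difference was 1.69 in shCTL (interval 1.39 to 2.04) and 1.61 in shA5 (1.28 to 1.97), or 3.23-fold and 3.06-fold. EEF1A1 has 14 annotated coding transcripts, of which 3 were listed, and reads can be shared with near-identical copies, so its values are uncertain.

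The termination factors held the highest median of the groups in shCTL, 0.20 over 3 genes. GSPT2, an intronless paralog of GSPT1, had 45, 133, 21 and 103 counts and an enrichment of 0.73 (interval 0.25 to 1.27) in shCTL and 1.01 (0.34 to 1.78) in shA5. GSPT1 had 169, 342, 121 and 236 counts and stood at 0.20 and -0.30. GSPT2 lay above GSPT1 by 0.53 in shCTL, with an interval of -0.03 to 1.14 that held 0, and by 1.31 in shA5 (0.56 to 2.15). ETF1, which reads all stop codons, had 93, 106, 67 and 161 counts and stood at -0.62 in shCTL and 0.00 in shA5.

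The 12 cytosolic synthetases past the filter had a median enrichment of -0.64 in shCTL, beside -0.11 for all genes, and none was enriched 1.5-fold or more, beside 22.5% of all genes. NARS1 (asparagine) had 839, 504, 362 and 370 counts (-1.55, interval -1.72 to -1.39). EPRS1, which joins the glutamate and proline enzymes in 1 protein, had 2456, 2148, 1230 and 1395 counts (-1.01), and GARS1 (glycine) had 1413, 1425, 746 and 947 (-0.80). GARS1 is counted as cytosolic, though the set holds no separate mitochondrial glycine gene. AARS1 (alanine), with 3523, 7471, 2053 and 5925 counts, was the only one of the 12 above 0, at 0.27 in both populations (intervals 0.21 to 0.32 and 0.19 to 0.34). Its neighbour YARS1 (tyrosine) was at -0.03 with an interval of -0.12 to 0.06. Per kb of transcript the shCTL input held 458 CPM of AARS1, 372 CPM of VARS1 and 323 CPM of YARS1, which have 1 listed transcript each.

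The 10 mitochondrial synthetases past the filter spread more widely, from -1.86 to 1.13, with a median of -0.24 in shCTL and -0.71 in shA5. PARS2 (proline) had 99, 383, 77 and 377 counts and was 2.18-fold higher in the m6A-IP in shCTL (log2 1.13, interval 0.81 to 1.47), with 1.02 in shA5. MARS2 (methionine) had 221, 711, 124 and 621 counts (0.86 and 1.06), and AARS2 (alanine) had 1088, 2727, 654 and 2750 (0.51 and 0.81). These 3 were above 0 in both populations by more than their intervals. At the lower end were RARS2 (arginine) with 149, 71, 97 and 63 counts (-1.86 in both), IARS2 (isoleucine) with 967, 515, 518 and 324 (-1.72 and -1.94) and CARS2 (cysteine) with 425, 247, 198 and 168 (-1.59 and -1.49). Intermediate values were found for YARS2 at 0.11, NARS2 at 0.19, TARS2 at -0.60 and LARS2 at -0.75 in shCTL.

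Of 14 pairs of a cytosolic and a mitochondrial enzyme whose symbols differ only in the final 1 or 2, 6 had both genes past the filter. EPRS1 and PARS2, which both charge proline tRNA, are not among these pairs by symbol and stood at -1.01 and 1.13. In shCTL the mitochondrial mRNA was more enriched in 4 of the 6 pairs, in 3 of them by more than the counting interval: NARS2 over NARS1 by 1.74 (interval 1.29 to 2.20), MARS2 over MARS1 by 1.26 (0.98 to 1.54) and AARS2 over AARS1 by 0.24 (0.12 to 0.36). It was less enriched in the other 2, IARS2 under IARS1 by -1.20 (-1.65 to -0.75) and RARS2 under RARS1 by -0.57 (-1.06 to -0.14). For tyrosine the difference of 0.14 had an interval of -0.17 to 0.46 that held 0. In shA5 the mitochondrial mRNA was the higher in 3 of the 6, since YARS2 was below YARS1 there, by -0.32 with an interval of -0.69 to 0.05 that held 0. The IARS pair differed by -0.40 in shA5, with an interval of -1.05 to 0.32 that held 0.

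**Figure D2:**
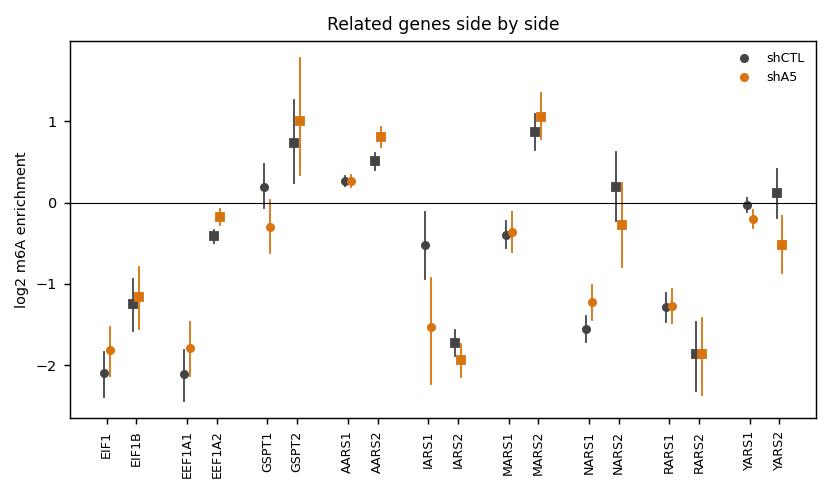
Log2 m6A enrichment (y axis) of paralogs and of cytosolic and mitochondrial synthetases side by side (x axis), with circles for the first and squares for the second gene of each pair, grey for shCTL and orange for shA5, and 95% counting intervals from 1 library pair each. EEF1A2 lies 1.69 above EEF1A1 in shCTL, NARS2 1.74 above NARS1, and IARS2 -1.20 from IARS1.

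With counts summed over transcripts, MARS2, GSPT2 and PARS2 had the highest enrichment values in shCTL, GSPT2 (0.73) and EIF3B (0.72) being close. MARS2 and GSPT2 are encoded by a single exon and PARS2 by 2, and no other member past the filter had fewer than 3. Exon numbers are those of the transcript with the most counts, and on that transcript alone EEF1D with 8 exons was at 1.19, above PARS2 (1.13), EIF3B with 19 at 0.89, above MARS2 (0.86) and GSPT2, and EIF2B1 with 9 at 0.71. Over all genes with 1 or 2 exons (n = 590), 61.4% were enriched at least 1.5-fold in shCTL, with a median of 0.80, against a median of 0.86 for the 3 members. Of members with 3 to 9 exons, 0 of 17 were enriched to that degree in the summed counts, though EEF1D and EIF2B1 were on that transcript alone, beside 21.8% of the 2308 such genes, and of those with 10 or more exons 2 of 41 (4.88%), beside 13.5% of 2394. The share at least 1.5-fold lower was 35.3% of the 17 members beside 30.5% of all such genes, and 51.2% of the 41 beside 35.4%. Exon number and enrichment in shCTL had a Spearman correlation of -0.09 across the 61 members and -0.26 across 5292 genes, where the genes share libraries and differ in depth.

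**Figure D3:**
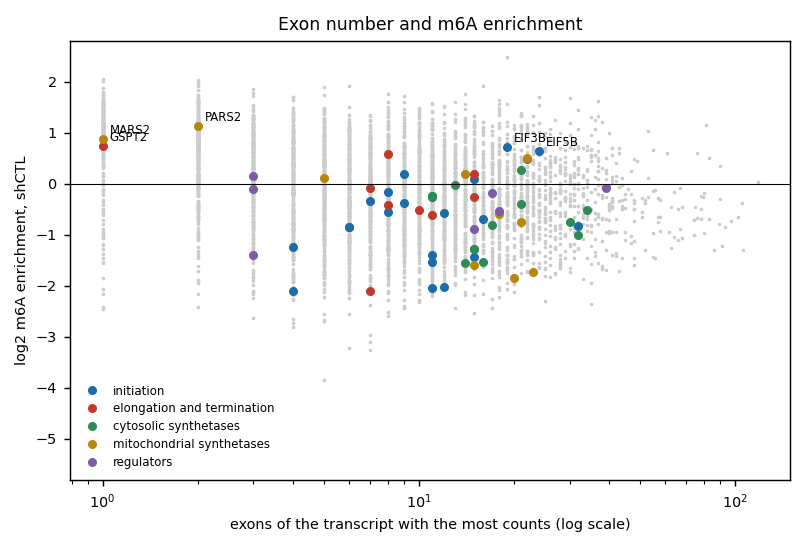
Log2 m6A enrichment in shCTL (y axis) against the number of exons of each gene's transcript with the most counts (x axis, log scale), for the 61 members in colour and all other genes past the filter in grey. Enrichment is of counts summed over transcripts. MARS2 and GSPT2 with 1 exon lie at 0.86 and 0.73 and PARS2 with 2 at 1.13, while EIF3B with 19 and EIF5B with 24 reach 0.72 and 0.64.

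As a pooled set, the member transcripts were built differently from most, with differences between the groups. Their median length was 2791 bases beside 3590 for all genes, their median coding length 1584 beside 1395, their median 3′ UTR 645 beside 1440, and their median exon number 13 beside 9. The median 3′ UTR was 506.5 for synthetases and 391 for elongation factors. It was 1421 for initiation factors, close to that of all genes, 2210 for termination factors and 995 for regulators. Initiation factors had a median coding length of 1122 and synthetases one of 1879.5. The densities of the m6A context were close to those of all genes, with a median of 14.7 RRACH sites per kb beside 13.3 and of 3.51 sites of GGAC before A, C or T per kb beside 3.38. Within 200 bases to either side of the end of the stop codon, 49 of the 61 members (80.3%) held at least 1 such GGAC site, beside 78.3% of 5279 genes. The number in that window and the enrichment in shCTL had a Spearman correlation of 0.34 across the members and 0.16 across all genes. GC content gave 0.29 and 0.36, and GGAC sites per kb 0.24 and 0.28. PARS2 had 3 such sites in the window, MARS2 4, GSPT2 2 and EIF3B 5, while EEF1A1, EIF1 and EIF3M each had 2 and EIF2S3 had 1. NARS1, among the lowest, had 1 GGAC site in its whole transcript and none in the window.

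The order of the members was much the same in both populations, with a Pearson correlation of 0.93 and a Spearman correlation of 0.91 between shCTL and shA5 across the 61 members (0.92 and 0.93 across all 5320 genes). Each gene's own depth enters both values, and the correlation is a description across genes.

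The comparison of shA5 with shCTL asks whether the mark on these mRNAs changed relative to other mRNAs. Each library was scaled to its own total, so a rise or fall of m6A shared by all mRNAs cancels out. The median change of all genes therefore lies near 0 by construction and does not show that m6A stayed level. Enrichment rose at least 1.5-fold in 1 of the 61 members, ETF1 (1.64%), beside 5.38% of all genes, and fell at least 1.5-fold in 5 (8.20%), beside 5.09%: IARS1, EEF1AKMT4, EIF3M, EIF2D and YARS2. The median change was -0.02 for the members and 0.00 for all genes, with 28 members above and 33 below 0. The interval lay wholly above 0 in 4 members, beside 8.20% of all genes, and wholly below 0 in 9, beside 8.10%, and it held 0 in the other 48. By group the median change was -0.04 for initiation factors, 0.21 for elongation factors, 0.28 for termination factors, -0.09 for synthetases and 0.13 for regulators. The elongation median was 0.10 at a mean of 200 counts, 0.05 for the transcript with the most counts and 0.01 for genes with 1 listed transcript, and the synthetase median was 0.02 at a mean of 200 counts.

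ETF1 went from 106 to 161 m6A-IP counts although the shA5 library was the smaller, while its input went from 93 to 67. Its enrichment rose by 0.62 (1.54-fold, interval 0.03 to 1.23), and the m6A-IP alone rose by 0.92 (0.57 to 1.30). For the transcript with the most counts alone, 1 of 3 listed, the change was 0.36 and under the threshold. Among its eRF3 partners GSPT1 had a change of -0.50 (interval -0.93 to -0.07), and GSPT2 changed by 0.28 with an interval of -0.60 to 1.20 that held 0. Smaller differences with an interval above 0 were 0.32 for NARS1 (0.05 to 0.59), 0.30 for AARS2 (0.14 to 0.46) and 0.24 for EEF1A2 (0.11 to 0.36). AARS2 was the only 1 of these with an enrichment above 0 in shCTL. EIF4G1 at 0.42, EIF5A (the hypusine-carrying elongation factor) at 0.36 and EEF1A1 at 0.31 had intervals that held 0.

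IARS1, the cytosolic isoleucine enzyme, had the largest fall. Its m6A-IP counts went from 110 to 38 and its input counts from 90 to 47, so that enrichment went from -0.52 to -1.53, 2.02-fold lower (interval of the log2 change -1.83 to -0.26). EIF3M fell by 0.78, or 1.71-fold, (interval -1.27 to -0.32) from 170 to 75 m6A-IP counts, with 404 and 226 in the inputs. EIF2D fell by 0.65 (interval -1.10 to -0.21) from 342 to 177 m6A-IP counts, with 182 and 109 in the inputs. In these 3 the m6A-IP alone fell by 1.18, 0.84 and 0.62 on the log2 scale. The exons of EIF3M overlap those of CCDC73 on the opposite strand, and the strand setting of the counts is not given in the sources used here.

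The other 2 falls came with a higher input value in shA5. YARS2 had 142 and 110 input counts and 271 and 184 m6A-IP counts, its enrichment changed by -0.63 (interval -1.10 to -0.17), its input by 0.40 and its m6A-IP by -0.23 (-0.51 to 0.04). EEF1AKMT4 had 42, 82, 34 and 52 counts, and its change of -0.78 had an interval of -1.68 to 0.08 that held 0. Its exons are shared with the read-through gene EEF1AKMT4-ECE2. Because the input counts enter both measures with opposite sign, a high input in 1 library lowers the enrichment there.

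For the deepest members even small changes were beyond counting error, which says nothing on how much 2 libraries of 1 population would differ. EEF1G changed by -0.19 (interval -0.24 to -0.14), EIF3G by -0.29 (-0.41 to -0.18) and YARS1 by -0.17 (-0.31 to -0.03), and EIF4B, at lower depth, by -0.32 (-0.63 to -0.01). EEF2 changed by 0.01 (interval -0.02 to 0.04), AARS1 by 0.00 (-0.09 to 0.09) and EPRS1 by -0.07 (-0.21 to 0.07). The exons of EIF3G overlap P2RY11 on the other strand, which had 113, 609, 130 and 847 counts beside 2662, 3896, 1667 and 2710 for EIF3G.

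**Figure D4:**
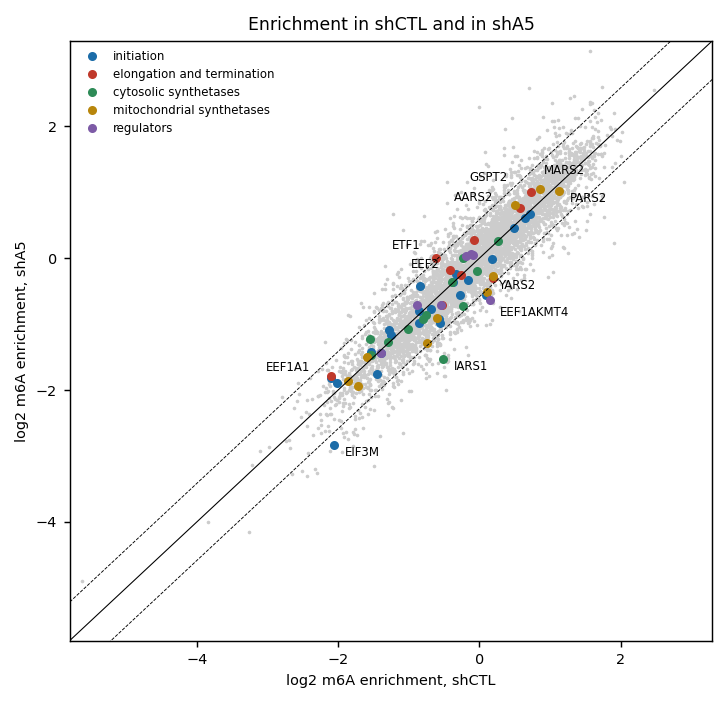
Log2 m6A enrichment in shA5 (y axis) against shCTL (x axis) for the 61 members, coloured by role, over all 5320 genes in grey, 1 library pair each, with the line of equality and dashed lines at 1.5-fold change. Most members lie between the dashed lines, ETF1 lies above them, and IARS1, EIF3M, EEF1AKMT4, EIF2D and YARS2 lie below.

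Input RNA of the translation genes differed little between shA5 and shCTL. It was at least 1.5-fold higher in 1 of 61 members (1.64%), beside 3.44% of all genes, and at least 1.5-fold lower in 0, beside 6.43%. In RNA from bulk cells, a change in the makeup of the culture and a change in RNA per cell cannot be told apart. The median change was 0.03 for the members and -0.02 for all genes. The interval lay wholly above 0 in 9 members, beside 12.9% of all genes, and wholly below 0 in 8, beside 15.6%.

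The 1 gene past the threshold was EIF2S1, the alpha subunit of eIF2, with 98 input counts in shCTL and 89 in the smaller shA5 library, a rise of 0.63 (interval 0.20 to 1.06). Its m6A enrichment went from -0.55 to -0.99, with an interval of the change of -1.02 to 0.15 that held 0. The other subunits changed by 0.16 for EIF2S3 (0.03 to 0.29) and -0.14 for EIF2S2 (-0.34 to 0.05), and EIF2B2 by 0.34 (0.10 to 0.59). EIF5, which triggers GTP hydrolysis on eIF2, changed by 0.37 (0.09 to 0.65), EEF2K by 0.36 (0.15 to 0.58) and EEF2 by 0.12 (0.10 to 0.14). WARS1 at 0.50, EEF1AKMT4 at 0.46 and PARS2 at 0.40 had intervals that held 0.

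Of the 12 cytosolic synthetases, 10 had a lower input in shA5 and 2 a higher one, with a median of -0.14, and 5 had an interval wholly below 0. Over all 5320 genes, 2793 had a lower input and 15.6% an interval wholly below 0. Among the 5 synthetases were NARS1 at -0.44 (839 and 362 counts, interval -0.62 to -0.26), MARS1 at -0.43 (497 and 216, -0.67 to -0.20), EPRS1 at -0.23 (2456 and 1230, -0.33 to -0.13) and GARS1 at -0.15 (1413 and 746, -0.28 to -0.02). Intervals narrow with depth, and these shares were not matched for it. The synthetases named averaged 446 to 1807 counts over the libraries, while 2491 of the 5320 genes averaged at least 200. The mitochondrial synthetases were split, with 6 above and 4 below 0 and a median of 0.09. None of the 22 passed 1.5-fold, beside 3.44% of all genes higher and 6.43% lower. Among the other falls, EIF4EBP1 changed by -0.38 (621 and 280 counts, interval -0.59 to -0.17), EIF1AX by -0.32 (-0.64 to -0.01) and CARS2 by -0.33 (-0.58 to -0.08). EIF5B at -0.575 (87 and 34 counts), just short of the threshold, and EIF4G1 at -0.41 rested on few counts.

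**Figure D5:**
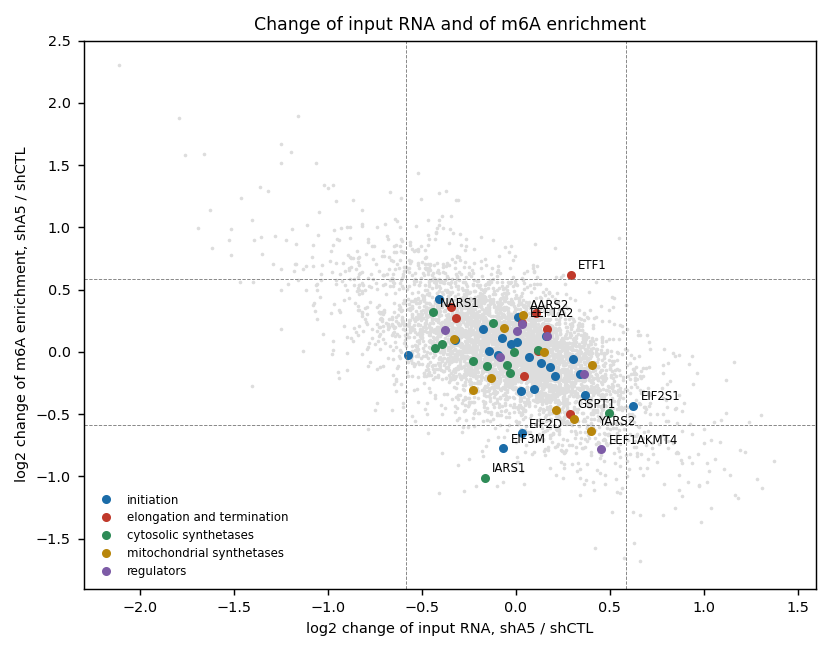
Log2 change of m6A enrichment (y axis) against log2 change of input RNA (x axis), shA5 over shCTL, for the 61 members coloured by role and all 5320 genes in grey, from 1 library per group, with dashed lines at 1.5-fold. ETF1 at 0.62 is the only member above the upper line, EIF2S1 at 0.63 the only one beyond the right line, and the downward slope of the grey cloud is in part built in, since the inputs enter both axes.

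Genes around the set were counted from lists of related functions. Of 21 other cytosolic translation genes 10 passed the filter, and 8 of these were at least 1.5-fold lower in the m6A-IP in shCTL, beside 30.3% of all genes. PELO, a ribosome rescue factor, was the exception above the threshold, with 223, 764, 153 and 680 counts (0.96 in shCTL). Enrichment rose past 1.5-fold in 2 of the 10, beside 5.38% of all genes. These were EEFSEC, the selenocysteine elongation factor (0.94, interval 0.12 to 1.80, 83, 65, 30 and 62 counts), and AIMP1, a scaffold of the synthetase complex (0.59, interval -0.01 to 1.21). It fell in 1, beside 5.09%, DENR, a reinitiation factor (-1.06, interval -2.16 to -0.13, 91, 45, 55 and 17 counts). The inputs of EEFSEC and AIMP1 were also the 2 of the 10 that fell past 1.5-fold, by 0.69 and 0.86, beside 6.43% of all genes. Of 13 mitochondrial translation factors 5 passed the filter, and of 7 diphthamide genes, which make the modified histidine of eEF2, 3 passed. None of these 8 changed by 1.5-fold in either measure, too few genes to set against the shares of all genes (5.38% and 5.09% for enrichment, 3.44% and 6.43% for input).

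Targets of the integrated stress response, which follows phosphorylation of EIF2S1, were looked at since several synthetases belong to that programme. Of 23 listed targets other than the synthetases, 15 passed the filter, with a median input change of 0.27, 9 above 0 and 6 below, and 2 rose at least 1.5-fold, beside 3.44% of all genes, and 0 fell by that much, beside 6.43%. The 2 were PPP1R15A, the inducible regulator of the eIF2 phosphatase, at 0.59 (731 and 646 counts, interval 0.44 to 0.75), and ATF5, a transcription factor, at 0.92 (31 and 35 counts, interval 0.21 to 1.69). Under the threshold but with intervals wholly above 0, SLC3A2 rose by 0.51 (0.25 to 0.77) and PPP1R15B by 0.46 (0.31 to 0.60). SESN2 rose likewise by 0.28 (0.11 to 0.44) and SLC7A5 by 0.27 (0.14 to 0.41). ATF4, the central transcription factor, had 338 and 195 counts and a change of -0.02. PSAT1, an enzyme of serine synthesis, had 275 and 112 counts and a change of -0.52 (-0.86 to -0.20), the only interval of the 15 wholly below 0. None of the 15 changed its enrichment by 1.5-fold, beside 5.38% of all genes higher and 5.09% lower.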

How the data were processed

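m6A-seq of HEK293T cells after X-ray exposure was analysed from 4 libraries. Per the labels and the study's methods, the authors processed reads with bcl2fastq 2.0 and fastp 0.23.2, aligned them to hg38 with HISAT2, sorted them with SAMtools 1.9 and name StringTie for quantification and MACS2 for peaks. The authors deposited a whole-number count for each Ensembl transcript, without normalization. The rule for reads shared between transcripts and the strand setting are not given in the sources used here.

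Counts were summed per gene symbol and divided by the library total (CPM). Enrichment is log2 of (IP CPM + 0.5) over (input CPM + 0.5), and its change is shA5 minus shCTL. Genes had to average 50 counts or more, and 1.5-fold was the threshold. Intervals are exact 95% conditional intervals without the pseudocount. Those of a change use the normal approximation where every count is above 500. They cover counting error only, since reads without molecular identifiers are not independent molecules. No fold is printed for a gene with all counts at or under 3, but the counts without a filter include such genes.

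Of the listed transcripts, 98.1% were found in Gencode v44, which gave lengths, exons, motifs (transcript strand) and positions, and 228 of the 231 member transcripts were found. Sequence features are those of the transcript with the most counts. The rule on symbols uses no measured value, but the members and lists were chosen with earlier results of these data known. Named are, per functional list, the 2 highest and 2 lowest enrichments in shCTL and the 3 highest input levels per kb, members with a 1.5-fold change and an interval that excludes 1, the 5 largest changes in each direction and the paired genes. Other members are named as values, chosen after their values were seen. The list of terminal oligopyrimidine genes shared 6 of its 7 counted genes with the set and is not reported apart. Not used here were peaks and proteins. EIF1AD is counted as an initiation factor by its symbol. A gene that the naming rule selects is counted but not reported here by name.

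The steps were tested on simulated data. Alternatives were edgeR 4.0.16 TMM factors, DESeq2 1.42.0 size factors, pseudocounts of 0.1 and 2 CPM, a mean of 10 or of 200 counts, no filter, 2-fold, and the transcript with the most counts. Python 3.11.15, scipy 1.17.1 and R 4.3.3 were used.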

Additional observations from a re-analysis of the deposited data

How the results depend on the processing

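No paired analysis was possible because there was a single library per group, and for the same reason no replicate could be left out. TMM factors, DESeq2 size factors and either pseudocount left each of the 24 counts and medians within the limit used (1.5-fold for a count, the 95% order-statistic range over genes for a median), and no single member reversed. Leaving out members whose exons overlap another gene, and keeping members with 1 listed transcript, were chosen after seeing the data.

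The share of all genes called moved with the filter as well. In place of 61 members, 89 passed at a mean of 10 counts, 40 at 200 and 105 without a filter, and 36 were left without overlaps and 35 with 1 listed transcript, so counts under those fall with the number of members. Members enriched 1.5-fold in shCTL (5) were 3 at a mean of 200 counts, 8 without a filter and 1 at 2-fold, beside 22.5% of all genes and then 29.1%, 21.6% and 10.1%, and those lower (27) were 43 at a mean of 10 counts, 16 at 200, 53 without a filter, 17 at 2-fold and 14 with 1 listed transcript, beside 30.3% of all genes and, for the filters and 2-fold, 35.8%, 21.7%, 36.7% and 16.9%. In shA5 the higher (7) were 13 without a filter, 3 at 2-fold and 4 without overlaps, beside 24.5%, 12% and 24.3% of all genes, and the lower (32) were 49, 19, 58 and 19 in the order 10 counts, 200 counts, no filter and 2-fold, beside 37.8%, 23.7%, 37.5% and 18.4% of all genes, 19 without overlaps and 18 with 1 listed transcript. Rises of enrichment (1) were 6 at 10 counts, 10 without a filter, and 0 at 200 counts, at 2-fold, for the top transcript and with 1 listed transcript, beside 12.6% of all genes at 10 counts, 22.7% without a filter and 1.65% at 200. Falls (5) were 13, 2, 18 and 1 in the same order of filters, 2 without overlaps and 3 with 1 listed transcript, beside 13.0%, 1.08%, 21.4% and 0.77% of all genes under the filters and 2-fold. The group medians of the change depended on the filter and the transcripts counted, with values given above. Rises of input (1) were 6, 0, 10 and 0, beside 9.32%, 1.08%, 15.3% and 0.47%, and falls (0) were 4 at 10 counts and 8 without a filter, beside 12.5% and 19.9%. For the top transcript alone, EIF5A changed by 1.26 in enrichment and -1.27 in input, on 18, 53, 4 and 42 counts, which is under the filter, so it is not among the members counted there, and EEF1D was enriched by 1.19, EIF2B1 by 0.71 and EIF5A by 0.71. Fewer members tested and fewer counts follow from the filters themselves, and the cause of the other shifts was not tested.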

Other observations

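Transcripts of 1 gene could differ in enrichment. For EIF2B1, the longer listed transcript (2397 bases) had 166, 480, 116 and 383 counts (shCTL input and m6A-IP, then those of shA5) and stood at 0.71 in shCTL, while the shorter (1768 bases) had 101, 55, 65 and 49 and stood at -1.66. For EEF1D, 3 transcripts had enrichments of 1.19, -0.04 and -0.87 in shCTL, and 1.24, 0.47 and -0.69 in shA5. For EIF4B the transcript with the most counts (3856 bases; 533, 323, 331 and 190) was at -1.53 and -2.06, and the other (1936 bases; 57, 58, 22 and 59) at -0.77 and 0.16. For EIF3B both were near or above 0, at 0.89 and 0.18 in shCTL. How reads shared by such transcripts were split is not known here, so these values belong to the listed transcripts as counted.

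Among the members under the filter, 7 had a count of 0 in at least 1 library. KARS1, the lysine enzyme of both compartments, had 28, 83, 23 and 43 counts, HARS1 had 35, 13, 28 and 15, EIF3H had 12, 2, 11 and 2, and EIF4A3, an RNA helicase of the exon junction complex, had 34, 78, 15 and 72.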
